A study of Homo sapiens with 12 samples.

Results

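SNU449 control cells are the untreated, Axl-expressing population of the human hepatocellular carcinoma (HCC) line SNU449, from which the 3 other populations of the study descend directly or through an intermediate. The 3 SNU449 control libraries were set against the 9 libraries of the other groups, and a gene was called private to SNU449 control when its 3 control libraries lay all above, or all below, every one of the 9 others. Of 15601 genes in the table, 1128 were private: 533 were higher in SNU449 control (3.42% of all genes), hence lower in every derived population, and 595 were lower in SNU449 control (3.81%), hence higher in every derived population. When the libraries were centred on the spike-in RNAs, 236 genes were private and higher and 823 private and lower.

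The study asked what separates HCC cells that acquired resistance to the kinase inhibitor Regorafenib (Rego) from naive cells, with and without the receptor tyrosine kinase Axl. SNU449 control cells carry unmodified AXL and were not made resistant. Rego-resistant SNU449 cells carry unmodified AXL and were grown in Rego from 50% of the IC50 upwards, in steps of 2 weeks, until 2 times the IC50 was tolerated. SNU449-Axl- control cells carry a knockout of AXL and were not made resistant, and Rego-resistant SNU449-Axl- cells carry the same knockout and went through the same Rego escalation. Each group was 1 cell population with 3 technical libraries, so p-values measure the spread between libraries of 1 population. Whether a private difference arose in the derived populations or in the SNU449 control culture after they were split cannot be told apart, nor can the effects of drug, knockout and time in culture. The number of clones behind the SNU449-Axl- cells, the passage numbers and the position of the AXL lesion were not given in the sources used here.

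SNU449 is known as a mesenchymal-like, poorly differentiated HCC line. Epithelial cells are held together by claudins, desmosomes and keratin filaments, which mesenchymal-like cells largely lack, and mature hepatocytes secrete plasma proteins such as albumin. Axl is a receptor activated by GAS6 and is known from mesenchymal-like tumour cells.

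A library value in what follows is the authors' transformed, batch-corrected expression value brought back to a linear scale. The lowest value in the table was 12, and genes with few or no reads took values of about 20 to 30, so that a difference from such a gene understates the change in RNA. A difference is SNU449 control minus the mean of the 3 other groups in log2(value + 1), tested with limma with the replicate number as a block, and a gene was called at a Benjamini-Hochberg adjusted p under 0.05 over all 15601 genes.

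The labels were checked first on AXL and on cell type markers. AXL had values of 727, 941 and 715 in SNU449 control and 1237, 815 and 1271 in Rego-resistant SNU449. The knockout cells had values of 35, 53 and 33 when naive and of 50, 38 and 52 when Rego-resistant, so that both Axl- groups lay below every Axl-expressing library. VIM, the mesenchymal filament vimentin, was abundant in SNU449 control, at 17327, 22519 and 13759. The epithelial markers EPCAM, CDH1 and KRT19 and the hepatocyte markers ALB, TTR, SERPINA1 and HNF4A were not listed in the table. Of the markers that were listed, the epithelial keratins KRT18 and KRT8 had values of 667, 896 and 1105 and of 159, 140 and 216 in SNU449 control, and the hepatocyte genes AFP and APOA1 stood at the bottom of the scale, at 24, 23 and 21 and at 24, 28 and 22. Of the 9 endothelial markers none was listed, and of 10 leukocyte markers 4 were listed and none was called. Libraries of SNU449 control varied about as much as those of the other groups, with a median SD over genes of 0.20 on the log2 scale against 0.17 to 0.19.

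All 4 populations had private genes, and SNU449 control had the most. By the same rule, Rego-resistant SNU449 had 916 private genes (5.87% of all genes), SNU449-Axl- control 966 (6.19%) and Rego-resistant SNU449-Axl- 757 (4.85%), against 7.23% for SNU449 control. The groups differed more on the low side than on the high side. SNU449 control had 595 genes below all other groups, SNU449-Axl- control had 454 (2.91%), and the Rego-resistant cells had 404 (2.59%) with Axl and 292 (1.87%) without it. Genes above all other groups numbered 533, 512 (3.28%), 512 (3.28%) and 465 (2.98%) in the same order. These counts have no test, since each group is 1 population. They were made on the deposited values, and the order of the groups was not examined with spike-in centring.

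**Figure D1:**
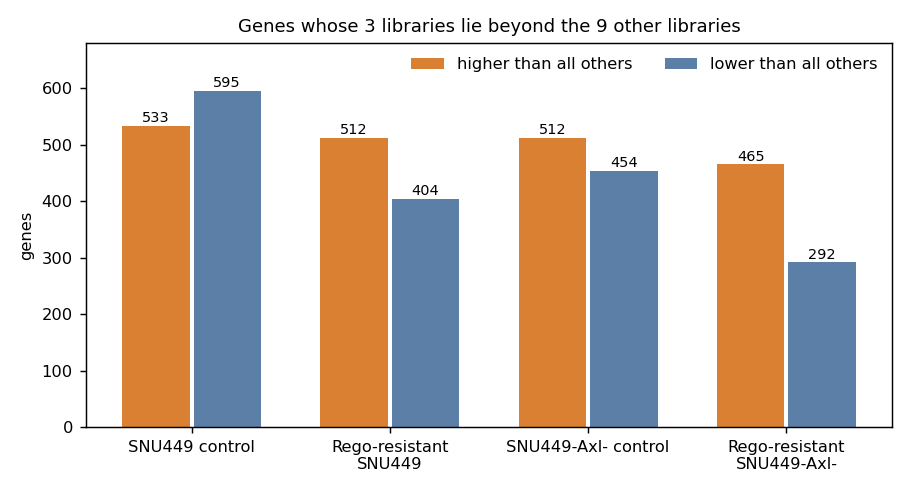
Number of genes whose 3 libraries lie above (orange) or below (blue) all 9 libraries of the other groups, for each of the 4 groups. SNU449 control has 533 and 595 such genes, and its lower bar is the tallest of the 8.

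Most private differences were small. The median distance from SNU449 control to the nearest other group was 0.43 on the log2 scale for genes higher in control and 0.47 for genes lower in control. It reached at least 1 for 58 higher and 67 lower genes and at least 2 for 11 higher and 7 lower genes. At the edge of the rule stood RPL6P27, a ribosomal protein pseudogene that may share reads with its parent gene and whose lowest control library (1580) was just above the highest other library (1577), and MGST1, just outside, at 1653 against 1655. On the low side PSMC4 was just inside, with a highest control library of 606 against 607, and REEP5 just outside, at 975 against 974.

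In the fit, 553 genes were called higher in SNU449 control than in the mean of the 3 others (3.54% of genes tested) and 746 lower (4.78%), or 8.33% in either direction. The private rule and the test read the same libraries, so one is no support for the other: 326 of the higher and 407 of the lower calls were also private, and 227 and 339 were called without being private. IGFBP5, which encodes a binding protein for insulin-like growth factors, shows the difference between the readings and is named here after its values were seen: it was called lower in SNU449 control, by 2.68 on the log2 scale, yet its values were 28, 24 and 23 there, 23, 18 and 29 in SNU449-Axl- control and 3564 to 10422 in Rego-resistant SNU449. Its call thus rested mainly on Rego-resistant SNU449. The counts of called genes leaned on single libraries. Without SNU449 control replicate 2 they were 266 higher and 357 lower, without replicate 1 they were 363 higher, and without replicate 3 they were 468 lower. Without the replicate block 996 and 1259 genes were called. Centring on the spike-in RNAs moved the median of all genes by -0.10 (log2) and the calls to 317 higher and 1074 lower, so that 22.8% of calls were higher in SNU449 control instead of 42.6%.

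Against single groups, 546 genes were higher (3.5% of genes tested) and 673 lower (4.31%) in SNU449 control than in Rego-resistant SNU449, together 7.81%. Against SNU449-Axl- control, 535 were higher (3.43%) and 628 lower (4.03%), together 7.45%. Against Rego-resistant SNU449-Axl-, 427 were higher (2.74%) and 683 lower (4.38%), together 7.11%. The 3 comparisons share the control libraries. Private genes did not point to 1 of the derived groups as the closest: among those higher in control the nearest group was Rego-resistant SNU449 for 164, SNU449-Axl- control for 181 and Rego-resistant SNU449-Axl- for 188, and among those lower in control the numbers were 177, 211 and 207.

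The genes farthest from all other groups are described next, the 12 in each direction with the largest distance to the nearest group among private genes that were also called. Promoters of 3 of them are shown for orientation, as the 150 bases before the RefSeq start (GRCh38.p14): UCHL1, the gene with the largest difference, whose capitals mark CG dinucleotides; VCAM1, whose capitals mark GGGNTTNCC, letters found in many NF-kB sites; and ANKRD1, whose capitals mark GGAATG, letters bound by TEAD factors. Each pattern was searched on both strands. Of the 24 genes 10 had exactly 1 promoter in the table.
UCHL1, chr4:41256778-41256927, plus strand: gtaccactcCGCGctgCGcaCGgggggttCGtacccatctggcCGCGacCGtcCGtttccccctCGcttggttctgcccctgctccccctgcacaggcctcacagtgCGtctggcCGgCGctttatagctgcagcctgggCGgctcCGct
VCAM1, chr1:100719592-100719741, plus strand: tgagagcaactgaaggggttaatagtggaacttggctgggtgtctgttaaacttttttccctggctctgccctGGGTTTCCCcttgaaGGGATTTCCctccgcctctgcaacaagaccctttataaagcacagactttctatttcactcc
ANKRD1, chr10:90921088-90921237, minus strand: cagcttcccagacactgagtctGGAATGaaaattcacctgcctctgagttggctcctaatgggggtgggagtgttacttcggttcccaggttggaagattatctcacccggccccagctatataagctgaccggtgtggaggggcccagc
The UCHL1 window holds 15 CG dinucleotides, a number reached by 27.0% of the 35116 promoters in the table. It lies inside UCHL1 as annotated for these data, which starts at 41256413, so the annotations place the start differently. GGGNTTNCC occurs 2 times in the VCAM1 window and in 2.90% of all promoters, and GGAATG occurs 1 time in the ANKRD1 window and in 7.08% of all promoters. These are matches of letters, and nothing was measured about binding or methylation.

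RNAs present in SNU449 control and lost in every derived population were led by UCHL1, an ubiquitin hydrolase of neurons and neuroendocrine cells (chr4:41256413-41268455). UCHL1 had values of 1011, 1164 and 1366 in SNU449 control and of 21 to 27 in the 9 other libraries. The control libraries were thus separated from a group of libraries at the bottom of the scale, with a difference of 5.68 ± 0.15 (SE). BCAT1, the cytosolic aminotransferase of branched-chain amino acids (chr12:24810024-24949101), had values of 678, 565 and 426 in SNU449 control, 31, 28 and 42 in Rego-resistant SNU449, and 20 to 23 in both Axl- groups, a difference of 4.41 ± 0.17. CXXC5, a zinc finger protein that binds unmethylated CG dinucleotides and restrains Wnt signalling (chr5), had values of 493, 319 and 589 in SNU449 control and 26 to 76 elsewhere, a difference of 3.43 ± 0.19. Of these genes CXXC5 kept the most RNA in Rego-resistant SNU449-Axl-, at 56, 76 and 60.

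VCAM1, the adhesion molecule that binds leukocyte integrins, had values of 550, 556 and 1886 in SNU449 control, with replicate 3 far above the others. Its values were 44, 68 and 38 in Rego-resistant SNU449, 58, 33 and 38 in SNU449-Axl- control and 174, 197 and 90 in Rego-resistant SNU449-Axl-. Rego-resistant SNU449 and SNU449-Axl- control overlapped, the resistant Axl- libraries lay above both, and the difference was 3.62 ± 0.33. APOL1, the trypanosome-lysing apolipoprotein, had values of 1029, 1038 and 1150 in SNU449 control and lower values in every other group, of 220, 184 and 186 in Rego-resistant SNU449-Axl-, 127, 105 and 129 in SNU449-Axl- control and 57, 82 and 59 in Rego-resistant SNU449. Its difference was 3.20 ± 0.16.

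Structural and neural genes followed. FLNC, the actin crosslinker filamin C, had values of 127, 118 and 190 in SNU449 control and 20 to 32 elsewhere. TENM3, a teneurin of neural cell adhesion, had values of 54, 86 and 244 against 17 to 30, and its difference of 2.17 fell to 1.37 without SNU449 control replicate 3. NHS, a regulator of the actin cytoskeleton, had values of 230, 202 and 212 against 26 to 54. Thus the libraries of NHS agreed closely, while those of TENM3 spread more than 4-fold.

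The remaining leading genes have varied functions. TMPRSS15, the intestinal protease enteropeptidase, had values of 260, 208 and 104 against 22 to 45, and COLEC10, a collectin of the liver, had 72, 56 and 176 against 17 to 25. PLPP4, a lipid phosphatase, had 195, 198 and 49 in SNU449 control and 18, 18 and 29 in each of the other groups. BTBD11 had 84, 82 and 74 against 20 to 24. For PLPP4 and COLEC10 the 3 derived groups gave the same value for each replicate number, which shows that these genes sat at the bottom of the transformed scale there. Being called was part of how the 12 genes were chosen.

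**Figure D2:**
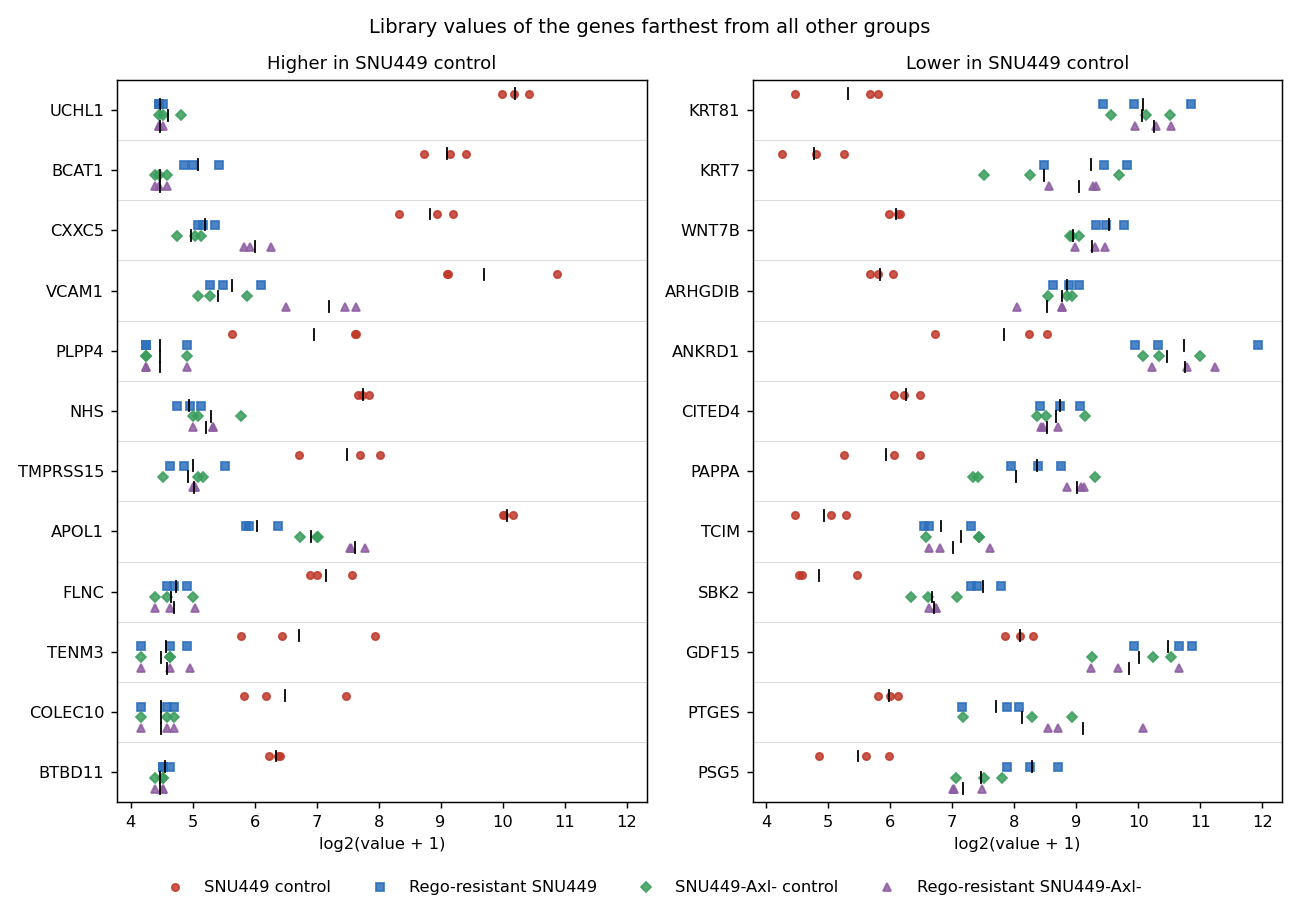
Library values, log2(value + 1), of the 12 genes in each direction with the largest distance between SNU449 control (red circles) and the nearest other group, with a vertical bar at each group mean. The 3 control libraries lie right of all others in the left panel and left of all others in the right panel, and UCHL1 and KRT81 show the widest gaps.

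The authors also deposited a table for each pair of groups, filtered for low counts within the pair, so that a gene can be listed for some pairs only. There were 124 genes listed in all 3 tables that include SNU449 control and in none of the 3 tables between derived groups, and 60 of them were private and higher in control. UCHL1, BCAT1, PLPP4, FLNC, TENM3, COLEC10 and BTBD11 were among them. The corresponding numbers were 92 for Rego-resistant SNU449, 115 for SNU449-Axl- control and 217 for Rego-resistant SNU449-Axl-. In the opposite direction, 80 genes were listed in all tables between derived groups and in none with SNU449 control, and 4 of these were private and lower in control.

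RNAs that were low in SNU449 control and gained in every derived population were led by the keratins KRT81 and KRT7. KRT81, a hair-type keratin (chr12), had values of 50, 55 and 21 in SNU449 control and 690 to 1848 in the 9 other libraries, a difference of -4.81 ± 0.29. KRT7, a keratin of simple and ductal epithelium (chr12), had 37, 27 and 18 in SNU449 control, 695, 354 and 897 in Rego-resistant SNU449, 181, 820 and 303 in SNU449-Axl- control and 636, 377 and 617 in Rego-resistant SNU449-Axl-, a difference of -4.16 ± 0.35. Both keratins were thus near the bottom of the scale in SNU449 control and well expressed in all derived libraries, and replicate 3 was the lowest control library for both. Not all keratins followed them. KRT8 was called lower without being private, with 133, 208 and 140 in Rego-resistant SNU449 and 276 to 542 in the Axl- groups, and KRT18 was not called. KRT81 belongs to a family of near-identical genes, and KRT86 beside it was also called lower, by 0.89 on the log2 scale, so reads may be shared between them (KRT86 is named after its values were seen).

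The gained genes included secreted proteins. WNT7B, a Wnt ligand, had values of 62, 70 and 69 in SNU449 control and 475 to 872 elsewhere, a difference of -3.15 ± 0.16 with little spread in any group. GDF15, a cytokine of cell stress, had 316, 230 and 272 in SNU449 control and 600 to 1867 elsewhere (-2.03 ± 0.28). PAPPA, the protease that releases insulin-like growth factors by cutting IGFBP4, had 88, 66 and 37 against 160 to 633 (-2.54 ± 0.33). SNU449-Axl- control was nearest to the control cells for WNT7B and PAPPA, and its PAPPA libraries ranged widely, at 160, 170 and 633.

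PTGES, the inducible prostaglandin E synthase, had values of 69, 55 and 63 in SNU449 control and 141, 236 and 269 in Rego-resistant SNU449, 488, 143 and 312 in SNU449-Axl- control and 418, 1073 and 374 in Rego-resistant SNU449-Axl-. The control libraries were tight and the derived ones scattered, and the difference was -2.34 ± 0.32. PSG5, a pregnancy-specific glycoprotein, had 62, 48 and 28 against 128 to 414; it belongs to a family of near-identical genes, so its reads may be split among copies.

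Intracellular regulators were also gained. ARHGDIB had values of 55, 65 and 50 in SNU449 control and 263 to 524 elsewhere (-2.87 ± 0.18), and CITED4, a co-activator that binds CBP and p300, had 88, 66 and 74 against 330 to 564 (-2.39 ± 0.19). ANKRD1, a nuclear ankyrin-repeat protein and target of YAP, had 302, 367 and 105 in SNU449 control against 986 to 3912. TCIM had 38, 21 and 32 against 92 to 195, and the kinase SBK2 had 43, 23 and 22 against 80 to 220.

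Gene lists were then counted, each beside the 3.54% of all genes called higher and 4.78% called lower and the median difference of -0.0043 over all genes. The lists were written with earlier results of these data known and carry no test of their own.

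Of 29 keratins and epithelial junction genes tested, 11 were called lower in SNU449 control and 1 higher, with a median difference of -0.46. Besides KRT81 and KRT7, the private ones were the claudins CLDN1 (95, 149 and 113 in SNU449 control against 154 to 384), CLDN2 (77, 51 and 61 against 93 to 242) and CLDN12 (49, 52 and 48 against 59 to 82), and JUP, the desmosomal plakoglobin (72, 38 and 89 against 115 to 289). JUP rested on 1 library: without SNU449 control replicate 2 its difference went from -1.28 to -0.81 and its limma adjusted p to 0.072. KRT34, a hair keratin, was the only member called higher (36, 36 and 32 against 22 to 29), and it lost its call with spike-in centring and whichever control library was left out. Without SNU449 control replicate 2 the list had 6 lower calls, and leaving out any 1 of the control libraries left no member called higher.

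Of 13 metallothioneins and S100 proteins tested, small metal- and calcium-binding proteins, 6 were called lower in SNU449 control and none higher, with a median of -0.58. S100A6 had values of 3131, 3132 and 2843 in SNU449 control, 7264 to 8169 in Rego-resistant SNU449, 6901 to 8087 in SNU449-Axl- control and 10711 to 12490 in Rego-resistant SNU449-Axl-. S100A4, a protein of motile mesenchymal cells, had 45, 31 and 51 in SNU449 control and reached 345 to 397 in Rego-resistant SNU449-Axl-, with 88 to 155 in the other groups. Both were thus lowest in SNU449 control and highest in the resistant Axl- cells. The list had 3 lower calls and a median of -0.37 without SNU449 control replicate 2, and without replicate 1 it had 4 lower calls.

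Glycolysis and hypoxia-response genes were higher in SNU449 control for 11 of 40 tested and lower for 2, with a median of 0.36. PDK1, a kinase that inhibits pyruvate dehydrogenase, had values of 231, 226 and 326 in SNU449 control and 68 to 121 elsewhere (1.41 ± 0.19). BNIP3, a mitophagy receptor induced by hypoxia, had 1311, 1302 and 1749 against 474 to 772 (1.24 ± 0.16). The hexokinase HK2 was called lower near the bottom of the scale, at 21, 23 and 24 against 26 to 40, and lost its call whichever control library was left out, with limma adjusted p of 0.19, 0.13 and 0.069 without replicates 1, 2 and 3. The number of higher calls fell to 6 with spike-in centring, to 6 without SNU449 control replicate 1 or replicate 2, and to 4 without replicate 3; PDK1 and BNIP3 remained called higher in each of these settings.

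**Figure D3:**
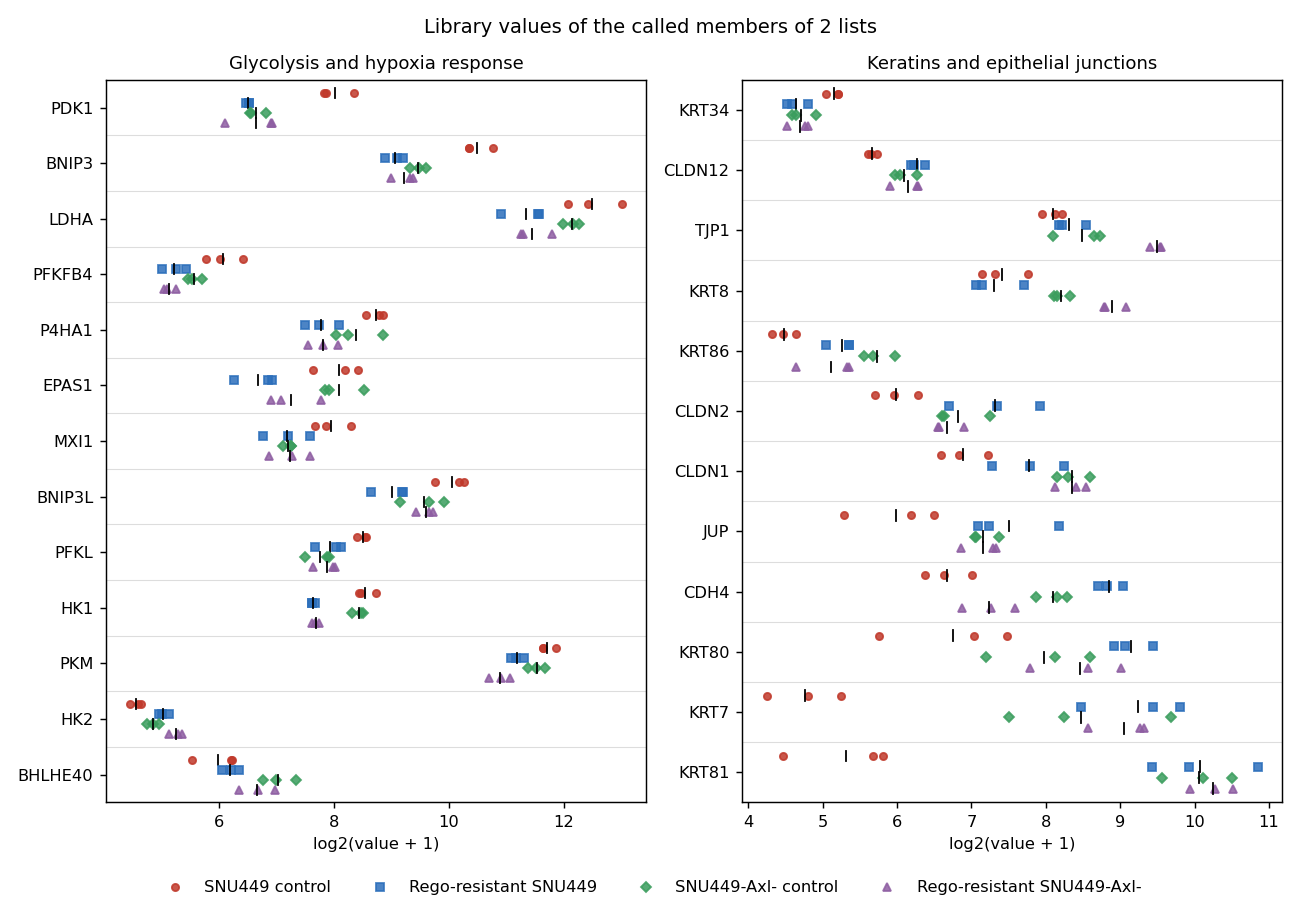
Library values, log2(value + 1), of the called members of the glycolysis and hypoxia list (left) and the keratin and junction list (right), ordered by their difference between SNU449 control and the mean of the other groups, with a vertical bar at each group mean. PDK1 and BNIP3 stand clear of all other libraries on the left, and KRT7 and KRT81 at the bottom right show control libraries far below the rest.

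The APOL gene cluster on chromosome 22 had 4 members tested, of which 3 were called higher in SNU449 control and all 3 were private, with a median of 1.10. APOL2 had values of 203, 311 and 269 in SNU449 control and 63 to 134 elsewhere, and APOL6 had 365, 328 and 262 against 137 to 252. APOL6 lost its call without SNU449 control replicate 1 (limma adjusted p = 0.13) or replicate 2 (limma adjusted p = 0.099).

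Interferon-response genes were called higher for 9 of 49 and lower for 2, and antigen presentation genes for 7 of 28 and 1. The medians, 0.064 and 0.073, were close to 0 and turned to -0.04 and -0.03 with spike-in centring, so only a minority of each list differed. PSMB8 and PSMB9, subunits of the immunoproteasome, had values of 410, 388 and 556 against 130 to 241, and of 460, 399 and 551 against 157 to 276. The class II gene HLA-DRA had 44, 51 and 50 in SNU449 control and 20 to 24 elsewhere, both low. TRIM22 and GBP3, antiviral proteins induced by interferon, differed by 1.08 ± 0.16 and 1.03 ± 0.20, whereas IFITM2, another such protein, was lower in SNU449 control at 280, 126 and 322 against 383 to 1011. IFITM2 belongs to a family of near-identical genes and missed the threshold without SNU449 control replicate 2 (limma adjusted p = 0.0502). Without SNU449 control replicate 1 there were 4 higher calls among the interferon genes and 3 among the antigen presentation genes, and with spike-in centring the lists had 8 and 4.

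NF-kB targets, cytokines and adhesion molecules split from their leading member. VCAM1 was called higher, and 7 of the 38 tested were called lower, with a median of -0.28. CXCL5, a chemokine for neutrophils, had values of 16, 22 and 29 in SNU449 control, 46 to 68 in Rego-resistant SNU449 and SNU449-Axl- control and 157, 156 and 71 in Rego-resistant SNU449-Axl-. TNFAIP2 had 192, 153 and 144 against 207 to 366. There were 4 lower calls without SNU449 control replicate 1.

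YAP and TEAD targets were called lower in SNU449 control for 8 of 28 and higher for 1, with a median of -0.039. The 1 called higher was AXL itself, the gene knocked out in both Axl- groups, so its call follows from the design. AXL libraries of Rego-resistant SNU449 overlapped with those of SNU449 control or lay above them. Behind ANKRD1 came NT5E, the ecto-nucleotidase CD73, at 64, 99 and 56 against 139 to 418, and CCN1, a matricellular protein, at 1209, 1274 and 893 against 1633 to 2565. The group leaned on SNU449 control replicate 3: without it 2 genes were called lower, and CCN1 had a difference of -0.54 (limma adjusted p = 0.065).

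Matrix, adhesion and pathway genes went both ways. Among laminins and integrins 3 of 33 were called higher and 4 lower: LAMA4, a laminin chain of blood vessels, had 409, 483 and 666 in SNU449 control and 329, 332 and 309 in SNU449-Axl- control but 21 to 38 in both resistant groups, while ITGB5 had 160, 181 and 169 against 305 to 713 and LAMA5 83, 65 and 127 against 137 to 341. LAMA4 thus met the private rule although the Axl- control cells kept most of its RNA. Among collagens and their enzymes 2 of 33 were called higher and 7 lower, of which COL4A4 was private at 29, 23 and 15 against 39 to 79. Of Wnt genes 3 of 36 were called higher and 5 lower, and of TGF-beta and BMP genes 5 of 47 and 9, among them CHRDL1, a BMP antagonist that was higher in SNU449 control at 243, 252 and 294 against 61 to 104, and BMP6, a BMP ligand that was lower at 20, 24 and 20 against 32 to 74. The collagen list had 4 lower calls without SNU449 control replicate 3, and without replicate 1 or replicate 2 the TGF-beta and BMP list had 3 higher calls.

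EMT factors and mesenchymal markers had 7 of 28 called higher and 4 lower, with a median of -0.21. VIM, ZEB1, CDH2 and SNAI2 were not called, and FN1, encoding fibronectin, was called higher without being private, since Rego-resistant SNU449-Axl- libraries reached 1351 to 4850. Private and higher was the EMT factor ZEB2, at 160, 161 and 153 against 58 to 143, with SNU449-Axl- control nearest at 143, 96 and 131. The matrix protein TNC (87, 82 and 44 against 18 to 43) and LUM (53, 53 and 44 against 22 to 41) were also private and higher. Private and lower members included FBLN5 (38, 36 and 26 against 49 to 92). Of 10 markers of fibroblasts and stellate cells 6 were listed, 1 was called higher and 1 lower. Without SNU449 control replicate 3 the EMT list had 2 lower calls and a median of 0.032, and without replicate 2 it had 4 higher calls (FN1 and the uncalled markers are named outside the rule).

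Receptor tyrosine kinases and their ligands were examined because the study was about them. Of 28 receptors tested 4 were called higher and 5 lower in SNU449 control. ERBB4 was private and lower, with values of 23, 23 and 21 in SNU449 control, 41, 53 and 52 in Rego-resistant SNU449, 35, 28 and 28 in SNU449-Axl- control and 32, 31 and 34 in Rego-resistant SNU449-Axl-. ERBB4 was thus near the bottom of the scale in SNU449 control and highest in the resistant Axl-expressing cells; its difference was -0.67 ± 0.15 (limma adjusted p = 0.0067), and 0.053 without SNU449 control replicate 3. NTRK3, the neurotrophin-3 receptor, was private and higher at 70, 44 and 64 against 20 to 23. EGFR, ERBB2, ERBB3, TYRO3 and MERTK were not called. The receptors called lower numbered 3, 2 and 1 without SNU449 control replicates 1, 2 and 3.

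Among growth factors, AREG, an EGFR ligand, had values of 19, 39 and 44 in SNU449 control, 56 to 66 in Rego-resistant SNU449, 140 to 241 in SNU449-Axl- control and 49 to 89 in Rego-resistant SNU449-Axl-. TGFA, another EGFR ligand, went the other way at 44, 47 and 32 against 20 to 23. FGF2 was private and higher, at 659, 703 and 636 against 410 to 570, but was not called (0.43 ± 0.14, limma adjusted p = 0.062). GAS6, the ligand of Axl, was called lower (87, 84 and 60; 0.60 lower on the log2 scale, limma adjusted p = 0.047) but overlapped with Rego-resistant SNU449-Axl- at 83, 82 and 112, and lost its call whichever SNU449 control library was left out, with a limma adjusted p of 0.064, 0.10 and 0.34 without replicates 1, 2 and 3. EFNA1, an ephrin, was lower at 82, 46 and 58 against 114 to 273. Of 37 genes of MAPK output and feedback 1 was called higher, FOSL1, and 5 lower, among them the feedback inhibitor SPRY2 at 93, 72 and 79 against 121 to 258. FOSL1 lost its call without SNU449 control replicate 2 (limma adjusted p = 0.058) or replicate 3 (limma adjusted p = 0.057).

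Drug transporters had 6 of 23 called lower and 1 higher, with a median of -0.27. ABCB1, the multidrug efflux pump P-glycoprotein, was private, with values of 64, 63 and 34 in SNU449 control, 102, 167 and 102 in Rego-resistant SNU449, 163, 131 and 177 in SNU449-Axl- control and 188, 144 and 324 in Rego-resistant SNU449-Axl-. The derived groups overlapped, and the Axl- cells that had not been made resistant lay among them. SNU449 control differed from their mean by -1.59 ± 0.25. Leaving out any 1 of the SNU449 control libraries left 3 lower calls in the list.

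Antioxidant genes of the NRF2 list had 5 of 44 called higher and 7 lower. TXNRD1, thioredoxin reductase, was higher at 2980, 3536 and 3774 against 1149 to 2654, while GPX4, which detoxifies lipid peroxides, was lower at 204, 208 and 268 against 334 to 845, as was HMOX1, haem oxygenase, at 113, 99 and 73 against 145 to 355. ALDH1A3, a retinaldehyde dehydrogenase, was lower at 81, 74 and 112 against 175 to 687. Members of this list thus lay on both sides, and its median was 0.21. The higher calls numbered 1, 2 and 3 and the lower calls 6, 3 and 4 without SNU449 control replicates 1, 2 and 3, and with spike-in centring there were 3 higher calls.

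Lipid and cell cycle genes had medians above 0 and few calls. Of 41 cholesterol and fatty acid genes 4 were called higher and none lower, with a median of 0.20: ACLY, which supplies cytosolic acetyl-CoA, had 1902, 1722 and 1937 against 822 to 1367. Of 57 cell cycle genes 3 were called higher and 1 lower, with a median of 0.20; CCND3, KIF23 and MCM6 were private and higher and differed by 0.66 to 0.76, and none of the 3 was called without SNU449 control replicate 2 or replicate 3. Of 24 hepatocyte genes listed out of 50, 6 were called lower and none was private. For FGB, a fibrinogen chain named after its values were seen, the values were 44, 16 and 24 in SNU449 control and 189, 547 and 294 in Rego-resistant SNU449-Axl-, with the other groups between 22 and 72. Among the remaining lists, HOX genes had 4 of 26 called higher and 3 lower, clustered protocadherins 2 of 24 and none, the ATF4 and unfolded protein response 2 of 39, led by BCAT1, and 1, extracellular proteases 4 of 37 and 4, growth factors and their binding proteins 3 of 42 and 7, and cancer-testis antigens none of 3 and 1. These counts also leaned on single libraries: no HOX gene was called higher without SNU449 control replicate 3, no protease without replicate 1 or replicate 2 and 1 protease with spike-in centring, 1 growth factor was called higher without replicate 2, 2 lipid genes without replicate 1, and 3 hepatocyte genes were called lower without replicate 2.

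**Figure D4:**
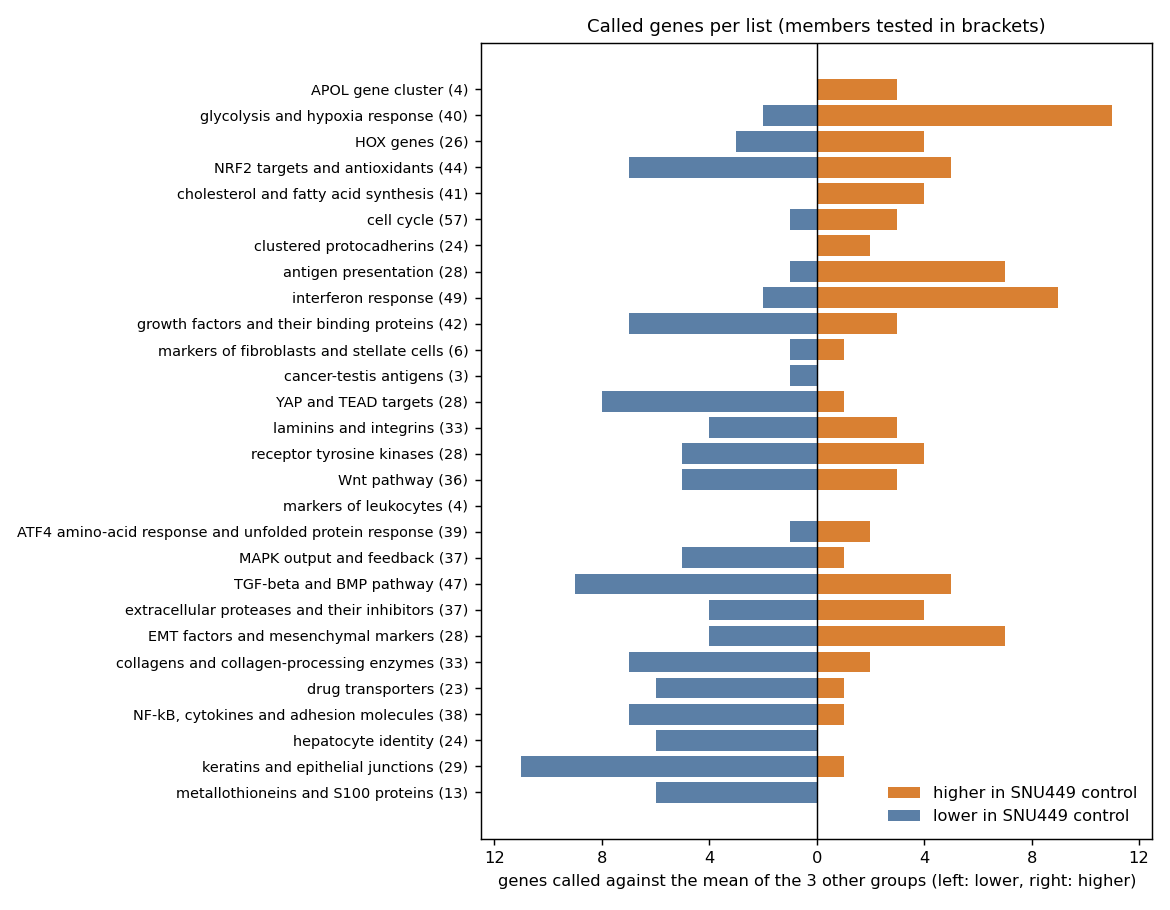
Number of genes called higher (right, orange) or lower (left, blue) in SNU449 control than in the mean of the 3 other groups, for each list with members tested (their number in brackets), ordered by median difference with the highest at the top. The keratin and junction list has the most lower calls, 11, and the glycolysis and hypoxia list the most higher calls, 11; with spike-in centring it has 6 and the interferon list 8.

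Private genes were unevenly placed along the genome, which the rule did not use. Chromosome 5 held 60 private lower genes, 7.57% of its 793, and they lay at one end. The widest gap between neighbouring genes on chromosome 5 lies between genes starting at 44826076 and 50665899 (GRCh38). Before the gap 47 of 146 genes were private and lower and none private and higher, and after it 13 of 647 were private and lower and 29 private and higher. Among well-expressed genes, with a mean normalized count of at least 30, 80 of the 83 before the gap had a difference below 0, with a median of -0.69, and 57 were called lower and none higher.

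By library, the median deviation of these 83 genes from their own mean over all libraries was -0.51, -0.52 and -0.55 in SNU449 control. It lay between -0.10 and 0.31 in the 9 others. Of the 83 genes 41 were private and lower, which by the rule places their 3 control libraries below all others. These medians are thus a description and no separate check. The median difference was -0.55 from Rego-resistant SNU449, -0.77 from SNU449-Axl- control and -0.75 from Rego-resistant SNU449-Axl-. For the 399 well-expressed genes after the gap the median was 0.096.

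The steepest stretch was a window of 41 neighbouring well-expressed genes from SLC12A7 to RAD1 (chr5:1050384-34918989), the lowest of all windows of this size, with a median of -0.78, 26 private lower genes and 28 called lower. Leaving out SNU449 control replicate 1 left 18 called lower. Its members have unrelated functions, and the following are named after their values were seen: SLC12A7, a potassium-chloride cotransporter (-1.61), LPCAT1, a lysophospholipid acyltransferase (-1.42), CCT5, a chaperonin subunit (-0.69), DROSHA, the nuclease that starts microRNA processing (-0.83), and NPR3, the natriuretic peptide clearance receptor (-2.03). Differences in the window reached from 0.29 to -2.03.

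**Figure D5:**
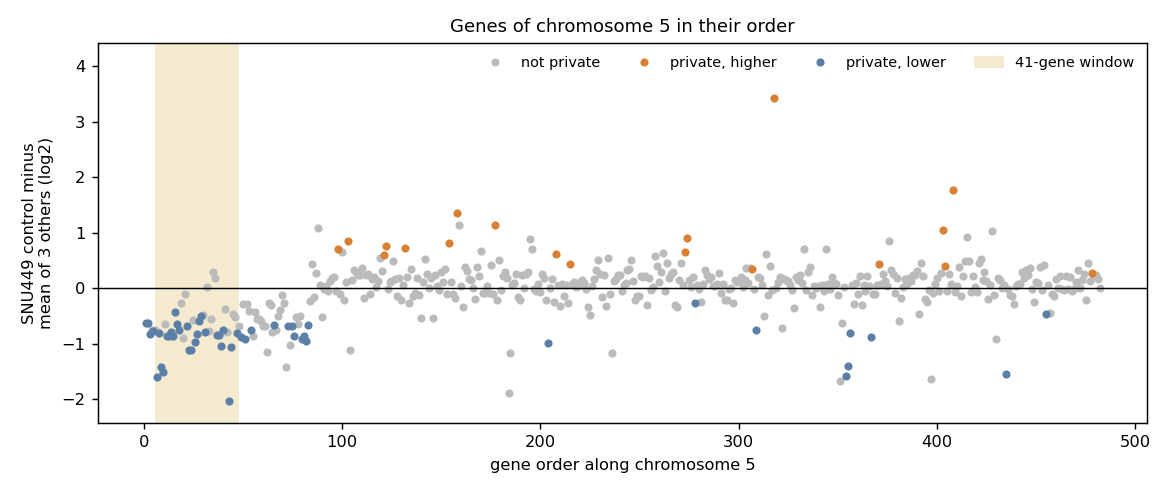
Difference between SNU449 control and the mean of the 3 other groups (log2) for the well-expressed genes of chromosome 5 in their order along the chromosome, with private higher genes in orange, private lower genes in blue, other genes in grey and the 41-gene window shaded. Of the first 83 genes 80 lie below 0, and the remaining genes scatter around a median of 0.096.

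Other chromosomes also held uneven shares, beside 3.81% private and lower and 3.42% private and higher over all genes. On chromosome 19, which carries AXL, 82 of 1080 genes were private and lower (7.59%) and 7 private and higher (0.648%), and its lowest window, from ZNF507 to ZNF146, had a median of -0.53. On chromosome 20, 35 of 400 genes were private and higher (8.75%) and 5 private and lower, and on chromosome 4 44 of 577 were private and higher (7.63%) and 13 private and lower. Private lower and higher shares were 5.84% and 1.03% on chromosome 3, 5.97% and 2.47% on chromosome 17, and 3.37% and 7.30% on chromosome 21. With spike-in centring every difference would be lower by a further 0.10, which does not change the contrast between the sides of chromosome 5.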

How the data were processed

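Per the study's methods, the labels and the submitters' processing notes, 12 QuantSeq 3' libraries were trimmed with cutadapt 4.0 and aligned with STAR 2.5.3a to GRCh38 with GENCODE annotation and spike-in sequences, and the authors compared groups in DESeq2, accounting for preparation dates. The deposited library values are a score: normalized, variance-stabilised, corrected for the preparation date, brought back from the log2 scale and rounded, with a bottom of 12, so they are not counts and depth per library is unknown. The deposited mean normalized count per gene is a signal, averaged by the authors over the libraries of a table, and summed to 4512220 over the 12-library table. The authors' fold changes, p-values and group averages were not used.

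Spike-in rows (32) were left out. The fit used limma 3.58.1 (R 4.3.3) on log2(value + 1), with 4 groups and the replicate number as a block, because the deposited values had been equalised along it: replicate-number means deviated by a median of 0.0013, against 0.12 for a library from its group. Same-number libraries of different groups had deviations correlated from -0.45 to -0.15. Named genes were AXL and genes the study discusses, the 12 private and called genes per direction farthest from the nearest group, up to 3 more per list and direction, and 4 long noncoding RNAs per direction; others are marked as chosen after their values were seen. The members and the 29 lists were chosen with earlier results of these data known. Group counts solved from the authors' means gave values below 0 and are not reported. The fit was checked on simulated data with normal errors and no bottom of the scale. That check therefore says little about genes near the bottom. Alternatives were a fit without the block, spike-in centring, upper-quartile rescaling, other pseudocounts, a filter on mean normalized counts, the other 12-library table and leaving out each library.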

Additional observations from a re-analysis of the deposited data

How the results depend on the processing

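Each group was 1 population with 3 technical libraries, and low genes sat at the bottom of a transformed scale, which limits what their differences say. All values below are numbers of genes higher and lower in SNU449 control. Without the replicate block the counts rose to 996 and 1259 against the mean of the other groups, 961 and 1214 against Rego-resistant SNU449, 1004 and 1178 against SNU449-Axl- control and 828 and 1151 against Rego-resistant SNU449-Axl-; of the named genes the block changed only the call of FGF2. With spike-in centring they were 317 higher against the mean, 441 lower against Rego-resistant SNU449, 307 higher against SNU449-Axl- control, 182 and 1880 against Rego-resistant SNU449-Axl-, and 236 private and higher. With a mean normalized count of at least 50 they were 330 and 456, 325 and 421, 348 higher, and 247 and 375 in the same order, with 310 and 375 private genes; fewer genes were tested. Private genes were 67 and 71 with a gap of at least 0.5 between libraries and 59 and 73 with group means at least 1 apart. Leaving out 1 library at a time gave 266 to 565 and 357 to 757 calls against the mean, 336 to 570 and 390 to 729 against Rego-resistant SNU449, 233 to 595 and 307 to 680 against SNU449-Axl- control, 197 to 485 and 379 to 741 against Rego-resistant SNU449-Axl-, and 567 to 898 and 637 to 951 private genes. A private gene stays private when a library is left out, so the number of private genes could only rise. The libraries whose removal moved a count by over 1.5 times were the 3 of SNU449 control, replicates 2 and 3 of Rego-resistant SNU449, replicate 2 of SNU449-Axl- control and the 3 of Rego-resistant SNU449-Axl-. Genes that were not called changed sign: without 1 library EGFR ranged from -0.52 to 0.017, TYRO3 from -0.0060 to 0.14 and MERTK from -0.070 to 0.094, in each case below or above 0 only without SNU449 control replicate 3, and with spike-in centring TYRO3 was at -0.034 and MERTK at -0.073. Upper-quartile rescaling, other pseudocounts and the other 12-library table moved no count by over 1.5 times. The causes were not tested.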

Other observations

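Long noncoding RNAs made up 14.4% of all genes, 9.94% of the private genes higher in SNU449 control and 7.90% of those lower. Private genes were also better expressed, with a median mean normalized count of 80.6 and 92.0 against 57.1 over all genes. LNCAROD had values of 315, 257 and 475 in SNU449 control, 110, 121 and 117 in SNU449-Axl- control and 22 to 35 in both resistant groups, so that the Axl- control cells lay between the others. LINC02154 had 79, 71 and 70 against 20 to 39, NR2F2-AS1 95, 70 and 96 against 35 to 47, and LINC00460 46, 52 and 57 against 20 to 30. In the other direction SLC7A11-AS1 had 20, 29 and 26 in SNU449 control, 49, 48 and 39 in Rego-resistant SNU449, 89, 75 and 85 in SNU449-Axl- control and 125, 108 and 129 in Rego-resistant SNU449-Axl-. NNT-AS1 had 109, 112 and 91 against 127 to 236, and ZNF793-AS1 had 31, 45 and 30 against 50 to 77. DPP3-DT had 28, 25 and 25 against 31 to 48. NNT-AS1 lost its call without SNU449 control replicate 3, and ZNF793-AS1 lost it without replicate 1 or replicate 3. DPP3-DT lost its call whichever SNU449 control library was left out. Whether the counting used the strand is not given in the sources used here, so reads of antisense RNAs and of the genes they overlap cannot be told apart.

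Of 26 HOX genes tested, 3 were private and higher and 2 private and lower. HOXB3 and HOXB4 were private and higher in SNU449 control, at 48, 63 and 56 against 30 to 47 and at 35, 37 and 38 against 24 to 32. Both lost their call with spike-in centring. HOXB3 also lost it without SNU449 control replicate 2 or replicate 3. HOXB4 lost it whichever SNU449 control library was left out, and without some libraries of the other groups. HOXA3 was private and higher but not called. HOXC10 and HOXC13 were private and lower, at 30, 29 and 27 against 45 to 56 and at 24, 20 and 21 against 27 to 54.

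The control library farthest from the mean of the 3 SNU449 control libraries was replicate 3 for 453 private genes, replicate 1 for 344 and replicate 2 for 331.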
